A study of Mus musculus with 13 samples.

Results

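Cortex of APP/PS1 mice given trazodone was compared with cortex of wild-type (WT) mice given water, to describe which genes still differed from WT under treatment. The comparison used 10 of the 13 libraries of the series, 4 of APP/PS1 trazodone and 6 of WT water, and took each gene entry whose TPM averaged 0.5 or more across the 13 libraries, 18612 of 53832 entries. TPM is a length-scaled share of a library's RNA, and the threshold was set by the mean level over all groups. A gene near 0 in WT, such as Cst7, could thus pass through its level in APP/PS1. The entries closest to the threshold were Dgkk at 0.500264 and Gm14029 at 0.500637 TPM inside, and Mir7092 at 0.499708 and Hsd17b14 at 0.499404 TPM outside. Of these genes, 367 were higher in trazodone-treated APP/PS1 than in WT cortex (1.97% of genes tested) and 48 were lower (0.258%), at an adjusted p under 0.05 in limma. The largest increases included the microglial genes Cst7, Itgax, Clec7a and Trem2, the complement gene C4b and the astrocyte gene Gfap. Activity-induced genes such as Fos, Egr1 and Egr2 were among the decreases.

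The series measured poly(A) RNA of mouse cortex, dissected from the right hemisphere after perfusion, by paired-end sequencing. The WT water group had the WT genotype and received distilled water. The APP/PS1 trazodone group had the APP/PS1 genotype and received trazodone, and another group of 3 APP/PS1 libraries received distilled water. Sample titles give 2 weeks for every group, while the sources used here do not give the APP/PS1 line, its promoter, the dose, the age or the sex. No WT mice given trazodone were analysed here, so genotype and drug cannot be told apart in the comparison with WT water. For that reason the values in APP/PS1 water are given for the genes described library by library, with a direct test of trazodone against water within APP/PS1 for most of them. That test shares the trazodone libraries with the main comparison. The labels do not say that the libraries came from separate animals, so p-values measure the spread between libraries.

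APP/PS1 mice carry the transgenes of their name, which drive amyloid production, and deposit amyloid-beta in the cortex. Around plaques, microglia take up a state known as disease-associated (DAM), which depends on the receptor Trem2 and its adaptor Tyrobp, and astrocytes become reactive with a rise of the filament protein Gfap. Trazodone, an antidepressant, acts on serotonin receptors and on the serotonin transporter, and it has also been studied as an inhibitor of a branch of the integrated stress response.

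Estimated depth was 33.2 ± 0.420 (SD) M fragments in WT water (n = 6), 31.7 ± 0.769 M in APP/PS1 water (n = 3) and 35.5 ± 1.33 M in APP/PS1 trazodone (n = 4), and 16234 to 16835 entries reached 1 TPM in each library. WT water libraries 3 and 6 stood apart in choroid plexus RNA: Ttr, the transthyretin made by that tissue, was at 471 and 2151 TPM there and between 5.92 and 23.6 TPM in the other 11 libraries. Without these libraries, an alternative added after seeing the data, 294 genes were higher and 35 lower. The 3 libraries of APP/PS1 water differed from the rest in the slope of log2 TPM on gene GC content, at -0.195 ± 0.0364 (SD) per 10 percentage points. For WT water the slope was 0.0389 ± 0.0496 and for APP/PS1 trazodone 0.0882 ± 0.0507, closer to each other than to that of APP/PS1 water. A correction for GC content and length also changed the comparison with WT water, to 407 higher and 69 lower genes. The Y-linked genes Ddx3y, Uty and Eif2s3y were listed at 0 in all 13 libraries and Kdm5d, also Y-linked, in 12. The cortical neuron genes Camk2a and Snap25 were at 1177 to 1458 TPM and 2604 to 3150 TPM in the 10 libraries compared.

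The higher genes outnumbered the lower ones. The 367 higher genes had a median log2 fold change of 0.86, a smallest one of 0.21 and a median WT level of 5.87 TPM, against 13.96 TPM over all genes tested. Of the higher genes, 152 were at least 2-fold higher. Their low WT level is partly built in. WT is the baseline of the difference, and genes low in WT could pass the level minimum through APP/PS1. The 48 lower genes had a median log2 fold change of -0.58, and 6 of them were at least 2-fold lower. All 4 trazodone libraries lay above all 6 WT libraries for 351 of the higher genes and below them for 40 of the lower genes. Over all genes tested such separation occurred upward for 3.25% and downward for 1.83%. The count of lower genes was 28 without trazodone library 1, 30 without trazodone library 4, 31 without WT water library 3 and 29 without WT water library 5. The median log2 fold change of all genes tested was -0.04, and 13.2% of them had an unadjusted p under 0.05. The share of tested genes called ran from 1.55% to 3.41% between chromosomes, with the highest share on chromosome 6.

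**Figure D1:**
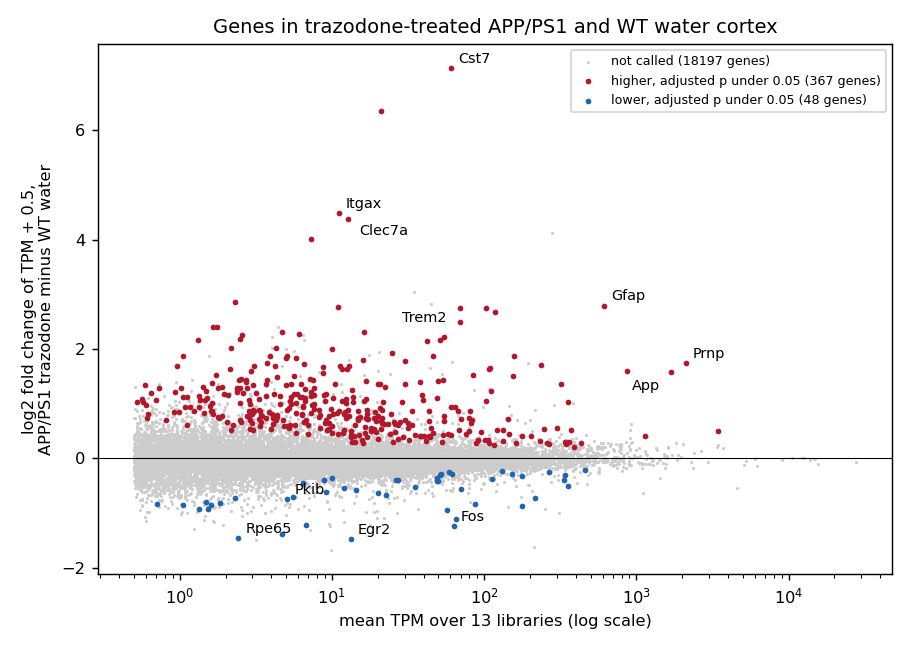
Log2 fold change of TPM + 0.5 (APP/PS1 trazodone minus WT water) for the 18612 genes tested against their mean TPM over the 13 libraries on a log axis. The 367 higher genes (red) reach 7.14 at Cst7, and the 48 lower genes (blue) reach no further than -1.49 at Egr2.

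The transgene-related entries came first as a check of the genotype labels. App, the precursor of amyloid-beta, ranged from 745 to 1008 TPM (median 959.99) in WT water. It was at 2066, 2003 and 1714 TPM in APP/PS1 water and at 2921, 2782, 2592 and 2513 TPM in APP/PS1 trazodone. The trazodone and WT libraries did not overlap, with a log2 fold change of 1.59 ± 0.10 (adjusted p = 4.75e-07). Trazodone libraries also all lay above the APP/PS1 water libraries, by 0.49 on the log2 scale (adjusted p = 0.0138, 0.0602 without APP/PS1 water library 3, and 0.0406 after a correction for GC content and length). How reads of a human APP transgene were assigned to the mouse entry was not stated in the sources at hand.

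Prnp, which encodes the prion protein, ranged from 849 to 956 TPM (median 926) in WT water. It was at 3213, 3202 and 3346 TPM in APP/PS1 water and at 3164, 2889, 2968 and 3209 TPM in APP/PS1 trazodone. The log2 fold change from WT was 1.74 ± 0.06 (adjusted p = 4.37e-10), the smallest adjusted p among the genes chosen by rule, and all 4 trazodone libraries were far above every WT library. The difference between the APP/PS1 groups was -0.09 (adjusted p = 0.399). Prn, which overlaps Prnp on the same strand, had no entry of its own and its reads may be included. Lamr1-ps1, a processed pseudogene copy of Rpsa at chr2:131904086-131904959 on GRCm38, ends 4969 bases before the start of Prnp and was singled out after its values were seen. It was listed at 0 in all 6 WT libraries, at 36.1, 40.8 and 31.8 TPM in APP/PS1 water and at 47.9, 40.3, 43.6 and 32.2 TPM in APP/PS1 trazodone. Its level is uncertain, since Rpsa itself is highly expressed and reads of near-identical copies can be split between them. Of the 19 tested genes in the amyloid list, 3 rose and 0 fell. Beside App and Prnp, the gene that rose was Clu, the chaperone clusterin, by 0.41 ± 0.07 (adjusted p = 0.00736).

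Genes of disease-associated microglia stayed well above WT. Of 30 tested members, 20 rose and 0 fell, with a median log2 fold change of 1.26 against -0.04 over all genes tested. That is 66.7% higher, against 1.97% of all genes tested. Cst7, a cystatin that inhibits lysosomal cysteine proteases, ranged from 0 to 0.799 TPM (median 0.108) in WT water, where 3 libraries were listed at 0. It was at 122, 174 and 64.7 TPM in APP/PS1 water and 104, 67.8, 99.8 and 149.9 TPM in APP/PS1 trazodone. No trazodone library came near the WT range, and the log2 fold change was 7.14 ± 0.35 (adjusted p = 2.7e-08). Itgax, the integrin subunit CD11c, ranged from 0.101 to 0.604 TPM (median 0.328) in WT water and was at 26.9, 26.5 and 15.01 TPM in APP/PS1 water and 20.5, 20.7, 14.7 and 17.8 TPM in APP/PS1 trazodone, a log2 fold change of 4.48 ± 0.20 (adjusted p = 1.38e-08). Clec7a, the beta-glucan receptor dectin-1, ranged from 0.182 to 0.638 TPM (median 0.437) in WT water and was at 29.0, 35.2 and 25.1 TPM in APP/PS1 water and 21.02, 12.9, 16.6 and 23.6 TPM in APP/PS1 trazodone, a log2 fold change of 4.38 ± 0.18 (adjusted p = 8.08e-09). Against APP/PS1 water Cst7 and Itgax did not pass (adjusted p = 0.867 and 0.498); Clec7a is taken up with the direct comparison further on. Neither Itgax nor Clec7a had a WT library above 1 TPM, and on this scale the pseudocount of 0.5 TPM shortens their differences.

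The signalling pair of this state was raised in every trazodone library. Trem2, a lipid-sensing receptor, was at 117, 141 and 109 TPM in APP/PS1 water and 108, 99.1, 97.0 and 121 TPM in APP/PS1 trazodone, above WT values that ranged from 15.01 to 23.2 TPM (median 19.4). Its log2 fold change from WT was 2.49 ± 0.12 (adjusted p = 2.17e-08). Tyrobp, the adaptor through which Trem2 signals, was at 182, 235 and 164 TPM in APP/PS1 water and 211, 162, 179 and 228 TPM in APP/PS1 trazodone against 26.4 to 39.9 TPM (median 28.5) in WT water, a log2 fold change of 2.68 ± 0.13 (adjusted p = 2.88e-08). Cd68, a lysosomal glycoprotein of phagocytes, was at 83.9, 91.5 and 73.0 TPM in APP/PS1 water and 77.7, 74.9, 69.8 and 90.9 TPM in APP/PS1 trazodone against 14.8 to 18.8 TPM (median 17.7) in WT water, with a log2 fold change of 2.16 ± 0.09 (adjusted p = 8.08e-09). Against APP/PS1 water Trem2, Tyrobp and Cd68 did not pass (adjusted p = 0.379, 0.969 and 0.668). The lysozyme gene Lyz2 rose by 2.74 ± 0.20 and the chemokine gene Ccl6 by 2.76 ± 0.35. Smaller rises included Csf1, a growth factor for microglia, at 0.68, the tetraspanin gene Cd9 at 1.24 and the receptor kinase gene Axl at 0.39. Apoe, the lipid carrier, had a log2 fold change of 0.51 and Spp1, which encodes osteopontin, 1.95, and neither passed the test (adjusted p = 0.463 and 0.130).

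**Figure D2:**
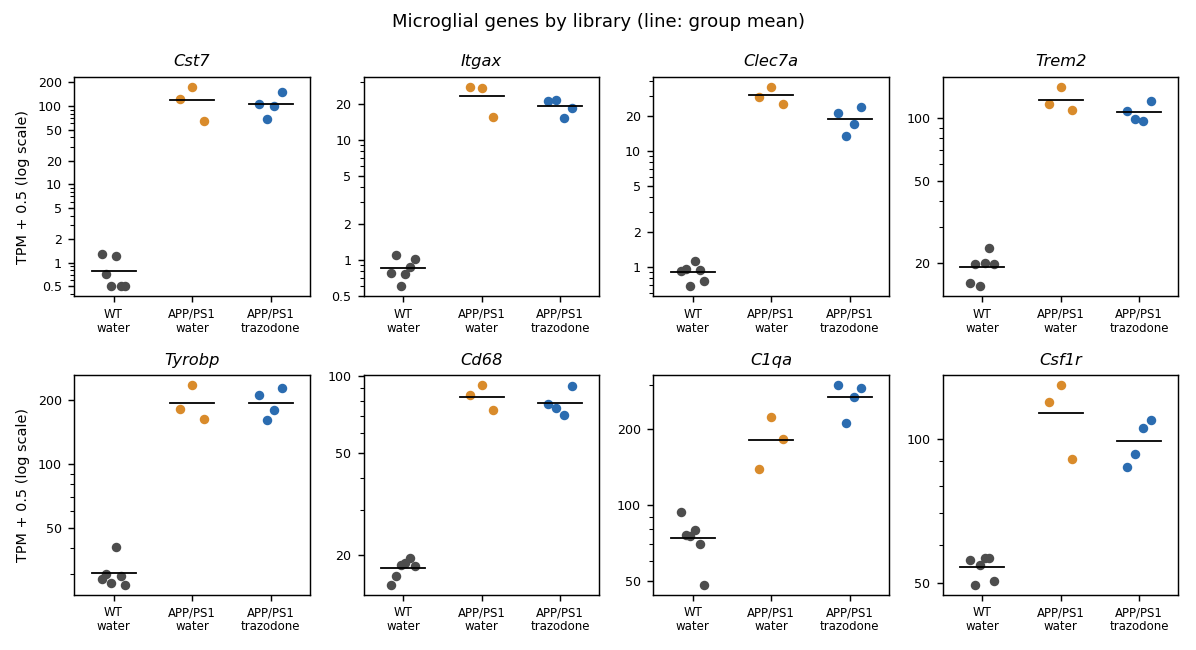
TPM + 0.5 on log axes for 8 microglial genes in the 6 WT water (grey), 3 APP/PS1 water (orange) and 4 APP/PS1 trazodone (blue) libraries; points are libraries and lines are group means. For each gene the blue points lie above every grey point, as in Trem2, where WT libraries span 15.01 to 23.2 TPM and trazodone libraries 97.0 to 121 TPM.

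Genes expressed by microglia at rest were also raised, with a smaller median. Of 20 tested members of the homeostatic list, 12 rose and 0 fell (60% higher, against 1.97% of all genes tested), with a median of 0.73. Csf1r, the receptor that keeps microglia alive, was at 119, 129 and 90.6 TPM in APP/PS1 water and 86.9, 92.8, 105 and 109 TPM in APP/PS1 trazodone and ranged from 49.2 to 56.0 TPM (median 54.7) in WT water, with no overlap and a log2 fold change of 0.87 ± 0.10 (adjusted p = 7.74e-05). Its difference from APP/PS1 water did not pass (adjusted p = 0.295). Tmem119 and the purinergic receptor gene P2ry13 rose by 0.55 and 0.72. P2ry12 and Cx3cr1, the receptors for ADP and fractalkine, had log2 fold changes of 0.63 and 0.45 and did not pass (adjusted p = 0.278 and 0.538). In RNA from whole tissue, more microglia and more RNA per microglial cell cannot be told apart.

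Complement and Fc receptor genes followed the same direction. Of 20 tested members 10 rose and 0 fell (50% higher, against 1.97% of all genes tested), with a median of 0.86. C1qa, a chain of the initiating complement protein, was at 138, 222 and 183 TPM in APP/PS1 water and 298, 211, 269 and 289.6 TPM in APP/PS1 trazodone, above WT values that ranged from 47.8 to 93.1 TPM (median 75.1). Its log2 fold change from WT was 1.87 ± 0.17 (adjusted p = 1.32e-05) and that from APP/PS1 water 0.57 (adjusted p = 0.0678). C4b, a complement component made in brain largely by astrocytes and oligodendrocytes, was at 182, 187 and 154 TPM in APP/PS1 water and 198, 125, 136 and 205 TPM in APP/PS1 trazodone against 17.7 to 34.7 TPM (median 23.3) in WT water, a log2 fold change of 2.75 ± 0.19 (adjusted p = 8.62e-07, and 0.813 against APP/PS1 water). C3ar1, the receptor for the C3a fragment, rose by 1.69 ± 0.12 and Itgb2, the shared beta chain of the leukocyte integrins, by 1.68 ± 0.13. The Fc receptor genes Fcgr2b, Fcer1g, Fcgr3 and Fcgr1 rose by 1.69, 1.44, 1.36 and 1.04.

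About as many lysosomal genes were raised as were not. Of 29 tested members 14 rose and 0 fell (48.3% higher, against 1.97% of all genes tested), with a median of 0.18. Gusb, the enzyme beta-glucuronidase, was at 37.5, 43.8 and 38.5 TPM in APP/PS1 water and 35.9, 36.3, 36.5 and 39.4 TPM in APP/PS1 trazodone and ranged from 16.7 to 18.8 TPM (median 17.8) in WT water, so trazodone and WT libraries were tight and far apart, with a log2 fold change of 1.04 ± 0.06 (adjusted p = 2.67e-07, and 0.381 against APP/PS1 water). Hexa, which encodes a lysosomal glycosidase subunit, rose by 1.04 ± 0.07 and Laptm5, a lysosomal membrane protein of blood-derived lineages, by 1.52 ± 0.11. The membrane glycoprotein genes Lamp1 and Lamp2 rose by 0.21 and 0.33.

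The chemokine genes Ccl3 and Ccl4 rose from levels near 0. Of 15 tested members of the cytokine and chemokine list 6 rose and 0 fell, with a median of 0.71. That is 40% higher, against 1.97% of all genes tested. Ccl3, a chemokine for monocytes and T cells, ranged from 0.0855 to 0.532 TPM (median 0.296) in WT water and was at 16.9, 19.0 and 8.08 TPM in APP/PS1 water and 12.2, 11.2, 12.7 and 13.3 TPM in APP/PS1 trazodone, a log2 fold change of 4.01 ± 0.22 (adjusted p = 9.05e-08). Its neighbour Ccl4 was at 3.81, 4.59 and 2.91 TPM in APP/PS1 water and 4.67, 3.05, 2.76 and 7.23 TPM in APP/PS1 trazodone against 0 to 0.654 TPM (median 0.0944) in WT water, a log2 fold change of 2.85 ± 0.28 (adjusted p = 3.06e-05). Neither passed against APP/PS1 water (adjusted p = 0.738 and 0.822). Cxcl16, a membrane-bound chemokine, rose by 1.33 ± 0.18, and the growth factor gene Tgfb1 by 1.02 ± 0.09. The pathway named in the study's title had no call: of 8 tested members of the IL-33 and ST2 list 0 rose and 0 fell. Il33, the ligand, was at 74.0, 73.9 and 61.2 TPM in APP/PS1 water and 60.5, 48.7, 51.6 and 54.5 TPM in APP/PS1 trazodone against 43.6 to 52.8 TPM (median 49.7) in WT water, a log2 fold change of 0.14 ± 0.08 (adjusted p = 0.485). Il1rl1, which encodes the receptor ST2 and its soluble form, lay below the level minimum, at 0.291 ± 0.105 TPM (SD, n = 4) in APP/PS1 trazodone, 0.182 ± 0.103 (n = 6) in WT water and 0.602 ± 0.0431 (n = 3) in APP/PS1 water. The trazodone minus WT difference on the log2 scale was 0.22, with a two-sided exact permutation p of 0.133 over 210 splits, of which the smallest possible is 0.00476. The entry does not separate the soluble from the membrane form.

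Some interferon-response genes were raised and most did not pass the test. Of 26 tested members 10 rose and 0 fell (38.5% higher, against 1.97% of all genes tested), with a median of 0.78. Irf8, a transcription factor of microglia, was at 17.3, 20.8 and 14.5 TPM in APP/PS1 water and 18.4, 17.4, 19.6 and 20.8 TPM in APP/PS1 trazodone and ranged from 4.16 to 6.72 TPM (median 6.09) in WT water, a log2 fold change of 1.63 ± 0.13 (adjusted p = 4.23e-06). The spans of Irf8 and of Mvd, described below, are shared in part with Gm20388, which had no entry of its own. Ifi27l2a was at 6.60, 9.87 and 5.07 TPM in APP/PS1 water and 13.97, 6.90, 13.2 and 11.1 TPM in APP/PS1 trazodone against 0.811 to 3.35 TPM (median 1.98) in WT water, a log2 fold change of 2.27 ± 0.29 (adjusted p = 0.000395). Irf8 and Ifi27l2a did not pass against APP/PS1 water (adjusted p = 0.633 and 0.256). Ifit3, which binds foreign RNA in a complex with its relatives, rose by 0.73 ± 0.13 and Lgals3bp, a secreted galectin ligand, by 1.41 ± 0.21. The count for the interferon response list depended on single libraries, with 6 genes without trazodone library 1 and 15 without trazodone library 2. Of 21 tested antigen presentation genes 3 rose (14.3%) and 0 fell. These were B2m by 1.03 ± 0.16, the immunoproteasome subunit gene Psmb8 by 0.98 ± 0.11 and the peptide transporter gene Tap2 by 0.49 ± 0.12.

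Promoters of the raised genes were searched for short motifs of known families. The windows were taken from RefSeq start sites on GRCm38.p6, from upstream of the start site to shortly after it, 300 bases in all, and the motif letters were searched on both strands. The interferon-response type GAAANNGAA was found in 8.60% of the 12370 tested genes with a promoter sequence, in 12.9% of the 272 higher genes that had one, and in 11 of 19 interferon-list genes. It was also in 4 of the 38 lower genes (10.5%), 6 of 20 immediate early genes, 6 of 26 DAM genes and 1 of 14 homeostatic genes. The letters GAGGAAGT, of the type bound by the myeloid factor PU.1, were found in 3.35% of all, in 28 of the 272 higher genes (10.3%) and in 0 of the 38 lower genes. Within the lists it was in 2 of 26 DAM genes, 0 of 14 homeostatic genes, 0 of 19 interferon-list genes and 1 of 20 immediate early genes. The letters TGACGTCA and TCACGTGA were also searched. They were in 3.30% and 1.91% of all, 1.47% and 1.10% of the higher genes, and 5.26% and 2.63% of the lower genes. TCACGTGA was in 3 of 22 lysosome-list genes, 1 of 14 homeostatic genes, 0 of 26 DAM genes and 0 of 20 immediate early genes. For TGACGTCA these counts were 1 of 22, 0 of 14, 1 of 26 and 2 of 20. A match is a description of letters, and a promoter without one may still hold a variant. The genes below were chosen after these shares were seen, to show the interferon-response and PU.1 types in place in stretches of 61 bases of these windows. Every match of either of these types within a stretch is in capitals, as it reads on the strand of the gene, and overlapping matches run together. The first 5 are interferon-list genes with the interferon-response type and the last 5 carry the PU.1 type, of which Ctss holds both.
Ifit3 (chr19:34583348-34583408, + strand): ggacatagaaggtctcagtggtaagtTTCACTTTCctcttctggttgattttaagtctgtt
Bst2 (chr8:71537568-71537628, - strand): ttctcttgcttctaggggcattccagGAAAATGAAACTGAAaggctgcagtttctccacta
Oas1a (chr5:120907511-120907571, - strand): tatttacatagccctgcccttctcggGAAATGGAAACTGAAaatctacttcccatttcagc
Ifi44 (chr3:151749879-151749939, - strand): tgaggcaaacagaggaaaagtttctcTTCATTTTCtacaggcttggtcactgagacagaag
Cd274 (chr19:29367336-29367396, + strand): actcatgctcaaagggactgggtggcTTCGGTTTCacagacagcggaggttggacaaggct
Gusb (chr5:130003000-130003060, - strand): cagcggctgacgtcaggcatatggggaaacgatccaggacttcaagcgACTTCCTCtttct
Hpgds (chr6:65144745-65144805, - strand): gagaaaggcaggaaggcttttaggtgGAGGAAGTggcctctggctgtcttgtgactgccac
Cyth4 (chr15:78597036-78597096, + strand): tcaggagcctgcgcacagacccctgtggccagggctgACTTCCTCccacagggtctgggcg
Ctss (chr3:95526758-95526818, + strand): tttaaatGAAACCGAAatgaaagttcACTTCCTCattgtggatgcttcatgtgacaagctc
Vav1 (chr17:57279063-57279123, + strand): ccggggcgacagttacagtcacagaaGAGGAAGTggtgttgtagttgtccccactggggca

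The genes with these sequences were picked from those higher in APP/PS1 trazodone than in WT water. Their direction is thus no result about the motifs. Ctss, a cathepsin of antigen-presenting cells, was at 339 ± 61.7 TPM (SD, n = 4) against 103 ± 16.1 (n = 6). Hpgds, a prostaglandin D synthase, was at 14.004 ± 0.798 against 6.498 ± 0.527 TPM. Cyth4 and Vav1, exchange factors for small GTPases, were at 23.1 ± 1.53 against 10.6 ± 0.661 TPM and at 8.003 ± 0.694 against 3.27 ± 0.401 TPM. Of the interferon list, Bst2, which tethers enveloped viruses, was at 22.7 ± 6.75 against 10.5 ± 2.15 TPM, and the 2′-5′ oligoadenylate synthetase gene Oas1a at 2.88 ± 1.03 against 0.964 ± 0.254 TPM.

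**Figure D3:**
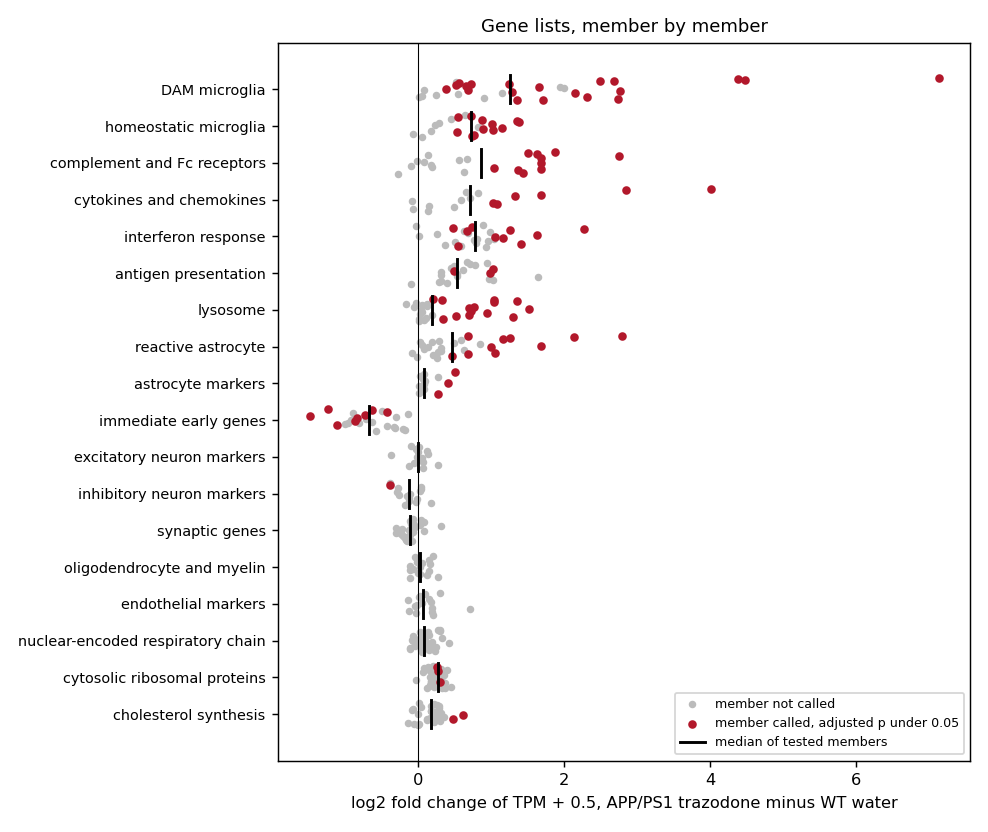
Log2 fold change (APP/PS1 trazodone minus WT water) of each tested member of 18 gene lists; red points passed the test at an adjusted p under 0.05 and the black mark is the list median. The medians run from 1.26 in the DAM list to -0.68 in the immediate early genes, and the neuronal, myelin and endothelial lists lie near 0.

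Reactive astrocyte genes were raised, and general astrocyte markers little. Of 27 tested reactive genes 10 rose and 0 fell (37.0% higher, against 1.97% of all genes tested), with a median of 0.46. Gfap was at 933, 999.96 and 904 TPM in APP/PS1 water and 1137, 935, 810.4 and 1332 TPM in APP/PS1 trazodone, and in WT water it ranged from 129 to 219.9 TPM (median 141). The lowest trazodone library was well above the highest WT library, and the log2 fold change was 2.79 ± 0.15 (adjusted p = 9.05e-08). The entry overlaps Fam187a on the opposite strand, which had no entry, and the use of strand in counting was not stated in the sources at hand. Serpina3n, a secreted protease inhibitor, was at 74.4, 73.5 and 57.6 TPM in APP/PS1 water and 82.9, 58.4, 45.4 and 68.3 TPM in APP/PS1 trazodone against 11.5 to 19.0 TPM (median 12.8) in WT water, a log2 fold change of 2.14 ± 0.16 (adjusted p = 2.64e-06). Gfap and Serpina3n did not pass against APP/PS1 water (adjusted p = 0.676 and 0.713). Vim, another intermediate filament gene, rose by 0.68 and Stat3, a transcription factor of the reactive state, by 0.46. Of 14 tested astrocyte markers 3 rose (21.4%) and 0 fell, with a median of 0.08. S100b, a calcium-binding protein, was at 234, 242 and 237 TPM in APP/PS1 water and 244, 228, 208 and 236 TPM in APP/PS1 trazodone against 153 to 195 TPM (median 173) in WT water, a log2 fold change of 0.41 ± 0.07 (adjusted p = 0.00415). The water channel gene Aqp4 and Mlc1 rose by 0.51 ± 0.12 and 0.27 ± 0.06, and S100b alone passed without WT water library 3 or without trazodone library 1, 2 or 4.

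Members of the immediate early list made up 8 of the 48 lower genes. Of 24 tested immediate early genes 0 rose and 8 fell, with a median log2 fold change of -0.68. That is 33.3% lower, against 0.258% of all genes tested. In 5 of the 24 all trazodone libraries lay below all WT libraries, which held for 1.83% of all genes tested. Fos, a subunit of the AP-1 transcription factor, was at 31.2, 31.4 and 39.4 TPM in APP/PS1 water and 29.6, 44.5, 29.1 and 56.3 TPM in APP/PS1 trazodone, and ranged from 65.6 to 112 TPM (median 99.9) in WT water. All trazodone libraries lay below the lowest WT library, with a log2 fold change of -1.24 ± 0.20 (adjusted p = 0.0028). Egr2, a zinc finger factor, was at 7.17, 7.99 and 8.12 TPM in APP/PS1 water and 7.59, 8.06, 5.72 and 5.10 TPM in APP/PS1 trazodone against 9.10 to 28.2 TPM (median 21.7) in WT water, a log2 fold change of -1.49 ± 0.26 (adjusted p = 0.00572). Egr1 was at 157, 152 and 109.8 TPM in APP/PS1 water and 173, 168, 136 and 202 TPM in APP/PS1 trazodone against 213 to 343 TPM (median 294) in WT water, a log2 fold change of -0.73 ± 0.15 (adjusted p = 0.014). Neither Egr2 nor Egr1 overlapped between trazodone and WT. Against APP/PS1 water Fos, Egr2 and Egr1 did not pass (adjusted p = 0.66, 0.662 and 0.301).

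Some other early genes overlapped between the groups. Dusp1, a phosphatase that shuts off MAP kinases, was at 34.0, 38.2 and 45.4 TPM in APP/PS1 water (adjusted p = 0.854 in the direct test) and at 25.95, 51.2, 35.96 and 63.1 TPM in APP/PS1 trazodone. WT libraries ranged from 62.1 to 129 TPM (median 93.5), and only the lowest of them lay below a trazodone library. The log2 fold change of Dusp1 was -1.11 ± 0.24 (adjusted p = 0.0224). Nr4a1, an orphan nuclear receptor, fell by 0.87 on the log2 scale without overlap, and Egr4 by 0.84 with overlap. Fosb and Jun fell by 0.64 and 0.42. Npas4, a neuron-specific factor induced by calcium, was at 16.1, 21.9, 16.3 and 23.5 TPM against 22.8 to 40.9 TPM (median 31.7), and its difference of -0.72 ± 0.18 did not pass (adjusted p = 0.0641). In APP/PS1 water Npas4 was at 7.07, 9.67 and 12.8 TPM, below every trazodone library, with a trazodone minus water difference of 0.97 (adjusted p = 0.00879, and 0.109 after the GC correction). The count of fallen immediate early genes was 2 without trazodone library 3, 3 without trazodone library 1 or WT water library 4, 4 without WT water library 3 and 5 without WT water library 2, and up to 11 without others.

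**Figure D4:**
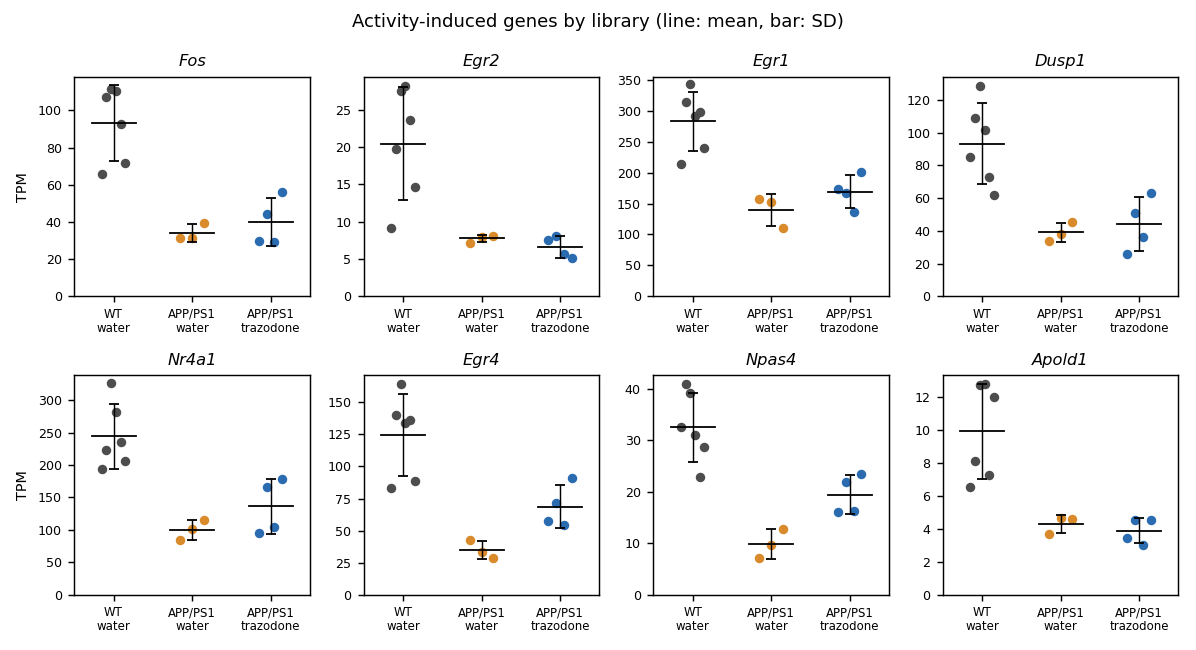
TPM of 8 activity-induced genes in the 6 WT water (grey), 3 APP/PS1 water (orange) and 4 APP/PS1 trazodone (blue) libraries; points are libraries, lines are means and bars are SD. For Fos the trazodone libraries lie between 29.1 and 56.3 TPM and the WT libraries between 65.6 and 112 TPM.

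Outside the early list the decreases were scattered. Rpe65, the retinoid isomerase of the eye, was at 1.43, 1.43 and 1.82 TPM in APP/PS1 water and 0.456, 0.784, 1.72 and 1.35 TPM in APP/PS1 trazodone against 2.42 to 4.97 TPM (median 3.96) in WT water, a log2 fold change of -1.46 ± 0.25 (adjusted p = 0.00415). Apold1, an endothelial gene that is itself induced by activity, was at 3.69, 4.65 and 4.59 TPM in APP/PS1 water and 3.46, 4.54, 3.03 and 4.51 TPM in APP/PS1 trazodone against 6.55 to 12.8 TPM (median 10.1) in WT water, a log2 fold change of -1.22 ± 0.20 (adjusted p = 0.00307). Neither gene overlapped between trazodone and WT, and neither passed against APP/PS1 water (adjusted p = 0.335 and 0.732). Btbd2 fell by 0.95, with WT water library 4 at 39.3 TPM beside the trazodone libraries and the other 5 WT libraries at 70.6 to 86.9 TPM. Cldn20, a claudin gene, and Lrp8os2, an antisense transcript whose reads cannot be told from those of its partner without strand, fell by 0.85 and 0.92. Btbd2, Cldn20 and Lrp8os2 lost their call when 1 of several libraries was left out. Slc32a1, the vesicular GABA transporter, was the only inhibitory neuron marker of 17 called, at -0.39 (adjusted p = 0.0394). It lost that call in 14 of 29 other settings. Gad1 and Gad2 were also at -0.39 and did not pass (adjusted p = 0.169 and 0.221). Of the 17 markers, 13 were below 0 and 4 above.

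Neuronal, myelin and vascular lists showed few or no calls. In the lists of 15 excitatory neuron markers, 26 synaptic genes, 17 neuropeptide genes, 15 striatal markers, 17 myelin genes, 11 oligodendrocyte precursor genes and 16 endothelial markers, 0 rose and 0 fell. Their median log2 fold changes were -0.00, -0.11, -0.20, -0.39, 0.02, 0.02 and 0.07. The members below 0 numbered 8, 21, 13, 14, 8, 3 and 5 in the same order, and the others were above 0. Over all genes tested 1.97% were higher and 0.258% lower, so 0 calls in lists this short say little about them. Cck, a neuropeptide gene, was at 842, 808, 682 and 908 TPM in APP/PS1 trazodone, within the WT range (611 to 1004 TPM, median 816), and at 394, 423 and 469 TPM in APP/PS1 water. Its log2 fold change was -0.02 ± 0.12 from WT (adjusted p = 0.9749) and 0.91 from APP/PS1 water (adjusted p = 0.00126, and 0.01199 after the GC correction). Mbp, which encodes myelin basic protein, had a log2 fold change of 0.20 ± 0.19 from WT (adjusted p = 0.694) and Vamp2, a synaptic vesicle SNARE, of -0.11 ± 0.05 (adjusted p = 0.373).

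Lists tied to the drug or to cell stress held no called gene. The integrated stress response (23 genes), endoplasmic reticulum chaperones (19), heat shock chaperones (15), trazodone and serotonin targets (18), circadian clock (17) and glucocorticoid response (14) had 0 genes higher and 0 lower in limma. Over all genes tested 1.97% were higher and 0.258% lower, so 0 calls in lists this short say little about them. The members below 0 numbered 17, 8, 8, 17, 14 and 9 in the same order, and the others were above 0. The trazodone and serotonin targets had a median of -0.17 and the integrated stress response of -0.09, beside -0.04 over all genes tested. Atf4, the central factor of the integrated stress response, was at 129, 127 and 72.8 TPM in APP/PS1 water and 217, 95.6, 86.3 and 113 TPM in APP/PS1 trazodone against 87.5 to 199 TPM (median 139) in WT water, with a wide spread in every group (log2 fold change -0.21 ± 0.27, adjusted p = 0.789). Htr2c, the serotonin 2C receptor, was at 29.2, 22.8 and 29.1 TPM in APP/PS1 water and 20.6, 19.3, 23.2 and 19.0 TPM in APP/PS1 trazodone against WT values of 14.1 to 43.9 TPM with a median of 27.3 (log2 fold change -0.40 ± 0.23, adjusted p = 0.49). Atf4 and Htr2c did not pass against APP/PS1 water either (adjusted p = 0.772 and 0.386). An adjusted p above the threshold does not show that levels were equal. Tmsb10, a small actin-binding protein, was above every WT library in all 4 trazodone libraries, at 590.2, 682, 619 and 727 against 351 to 566 TPM (median 504), and did not pass (log2 fold change 0.42 ± 0.12, adjusted p = 0.085). In APP/PS1 water it was at 182, 173 and 152 TPM, a trazodone minus water difference of 1.95 (adjusted p = 1.25e-05).

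Most metabolic and translation genes were not called. Of 48 tested cytosolic ribosomal protein genes 3 rose and 0 fell (6.25% higher, against 1.97% of all genes tested), with a median of 0.27. In 47 of the 48 the difference was above 0. All trazodone libraries lay above all WT libraries for 18 of them, which held for 3.25% of all genes tested. Rpl18 was at 88.0, 89.6 and 109 TPM in APP/PS1 water and 132, 123, 123 and 121 TPM in APP/PS1 trazodone against WT values of 99.4 to 109 TPM (median 103), a log2 fold change of 0.27 ± 0.06 (adjusted p = 0.0347). Rpl5 rose by 0.26 ± 0.06, and both lost their calls under the GC and length correction. The 34 nuclear-encoded respiratory chain genes had 0 calls and a median of 0.08, and the 10 mitochondrially encoded mRNAs 0 calls and a median of -0.02, a sign that turned to 0.06 with the GC correction and to 0.01 with median-ratio or quantile scaling. Of 28 cholesterol synthesis genes 2 rose (7.14%), with a median of 0.17. Mvd, the enzyme mevalonate diphosphate decarboxylase, was at 37.5, 35.9, 33.1 and 39.9 TPM in APP/PS1 trazodone, 21.2 to 26.2 TPM (median 23.8) in WT water and 23.04, 16.9 and 23.9 TPM in APP/PS1 water. It was thus above both other groups, by 0.61 ± 0.10 over WT (adjusted p = 0.00247) and 0.78 over APP/PS1 water (adjusted p = 0.00076, and 0.0344 after the GC correction). Stard4, which moves cholesterol between membranes, rose by 0.48 ± 0.07. Hmox1, the heme-degrading oxygenase, was the only called gene of 12 in the metallothionein and iron list, at 11.5, 15.3 and 11.3 TPM in APP/PS1 water and 11.9, 11.4, 11.4 and 15.6 TPM in APP/PS1 trazodone against WT values of 4.10 to 8.34 TPM with a median of 6.76 (log2 fold change 0.90 ± 0.17, adjusted p = 0.00885, and 0.979 against APP/PS1 water).

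Set directly against APP/PS1 water, 2319 of the 18612 genes were higher in APP/PS1 trazodone (12.5%) and 730 lower (3.92%), and the GC slope given above separates the same 2 groups; its part in those counts was not tested. The DAM list had 1 gene higher and 1 lower, the homeostatic list 1 and 2, complement and Fc receptors 0 and 2, interferon 0 and 0 and reactive astrocytes 2 and 1. Their medians against APP/PS1 water were -0.07, -0.14, 0.02, -0.03 and 0.07, beside 0.07 over all genes. Between APP/PS1 water and WT water the medians of these lists were 1.31, 0.95, 0.94, 0.73 and 0.38. The immediate early genes had 5 higher and 0 lower against APP/PS1 water, with a median of 0.20, and a median of -0.94 in APP/PS1 water against WT.

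A few microglial genes were above WT and below APP/PS1 water. Siglecf, a sialic acid-binding inhibitory receptor, ranged from 0.328 to 0.717 TPM (median 0.426) in WT water and was at 6.74, 5.67 and 3.14 TPM in APP/PS1 water and 2.83, 2.41, 2.20 and 2.24 TPM in APP/PS1 trazodone. Its trazodone libraries lay between both other groups, with log2 differences of 1.63 ± 0.19 from WT (adjusted p = 0.000149) and -0.91 from APP/PS1 water (adjusted p = 0.0144, and 0.0198 after the GC correction). Laptm5 showed the same order in its means, at 100.4, 96.6, 115 and 119 TPM in APP/PS1 trazodone and 161, 163 and 118 TPM in APP/PS1 water, where 1 library of each group overlapped, with a difference of -0.44 (adjusted p = 0.0365, and 0.0143 after the GC correction). Gpr34, a lysophosphatidylserine receptor, was at 39.7, 41.5, 51.9 and 40.2 TPM in APP/PS1 trazodone, 69.9, 74.3 and 77.5 TPM in APP/PS1 water and 11.1 to 20.0 TPM (median 17.4) in WT water. Its difference from APP/PS1 water was -0.77 (adjusted p = 0.00688, and 0.0848 after the GC correction). For Clec7a that difference was -0.69 (adjusted p = 0.0449, and 0.236 after the GC correction), and for C3ar1 -0.47 (adjusted p = 0.0332, and 0.138 after the GC correction). Of 28 other settings, the call against APP/PS1 water was lost in 3 for Siglecf, 6 for Laptm5, 1 for Gpr34, 14 for Clec7a and 10 for C3ar1. Siglecf, Laptm5, Clec7a and C3ar1 each lost it without APP/PS1 water library 1 and without library 2, where Laptm5 reached an adjusted p of 0.146, and Laptm5, Clec7a and C3ar1 also without some trazodone libraries.

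For some genes the trazodone libraries lay beyond both other groups. Pkib, an inhibitor of protein kinase A, was at 3.50, 3.40, 2.60 and 2.57 TPM in APP/PS1 trazodone, below both WT water (4.16 to 6.29 TPM, median 5.69) and APP/PS1 water (7.15, 7.82 and 6.88 TPM). Its log2 difference was -0.75 ± 0.13 from WT (adjusted p = 0.00523) and -1.15 from APP/PS1 water (adjusted p = 0.000453, and 0.00531 after the GC correction). Tagln, an actin-binding protein of smooth muscle, was at 19.3, 18.7, 13.7 and 17.6 TPM in APP/PS1 trazodone, 6.57 to 12.3 TPM (median 10.04) in WT water and 9.35, 10.2 and 9.33 TPM in APP/PS1 water. It was raised over WT by 0.81 ± 0.15 (adjusted p = 0.0107), and against APP/PS1 water by 0.80 (adjusted p = 0.00909, and 0.0681 after the GC correction). Mgp, a matrix protein of vessel walls and meninges, was at 33.7, 38.6 and 33.5 TPM in APP/PS1 water and 79.3, 68.1, 47.8 and 53.2 TPM in APP/PS1 trazodone against 24.4 to 44.4 TPM (median 34.7) in WT water, a log2 fold change of 0.86 ± 0.19 (adjusted p = 0.0334). Its difference from APP/PS1 water was 0.78 (adjusted p = 0.0335, and 0.101 after the GC correction), and that call was lost in 12 of 28 other settings, among them leaving out any 1 APP/PS1 water library or trazodone library 1 or 2. The other 12 tested mural markers and 14 tested fibroblast and meningeal markers were not called. Il3ra, a cytokine receptor subunit, was at 13.1, 11.97, 13.8 and 12.4 TPM in APP/PS1 trazodone, above WT (6.79 to 10.5 TPM, median 7.66) and APP/PS1 water (8.64, 6.82 and 5.36 TPM), with a log2 fold change from WT of 0.67 ± 0.14 (adjusted p = 0.0165). Its difference from APP/PS1 water was 0.86 (adjusted p = 0.00309, and 0.146 after the GC correction). Tgfb1 was at 20.5, 19.2, 18.8 and 19.4 TPM in APP/PS1 trazodone, also above WT (8.29 to 10.1 TPM) and APP/PS1 water (14.4, 17.7 and 13.2 TPM). It differed from APP/PS1 water by 0.37 (adjusted p = 0.0268, and 0.292 after the GC correction), and that call was lost in 13 of 28 other settings.

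**Figure D5:**
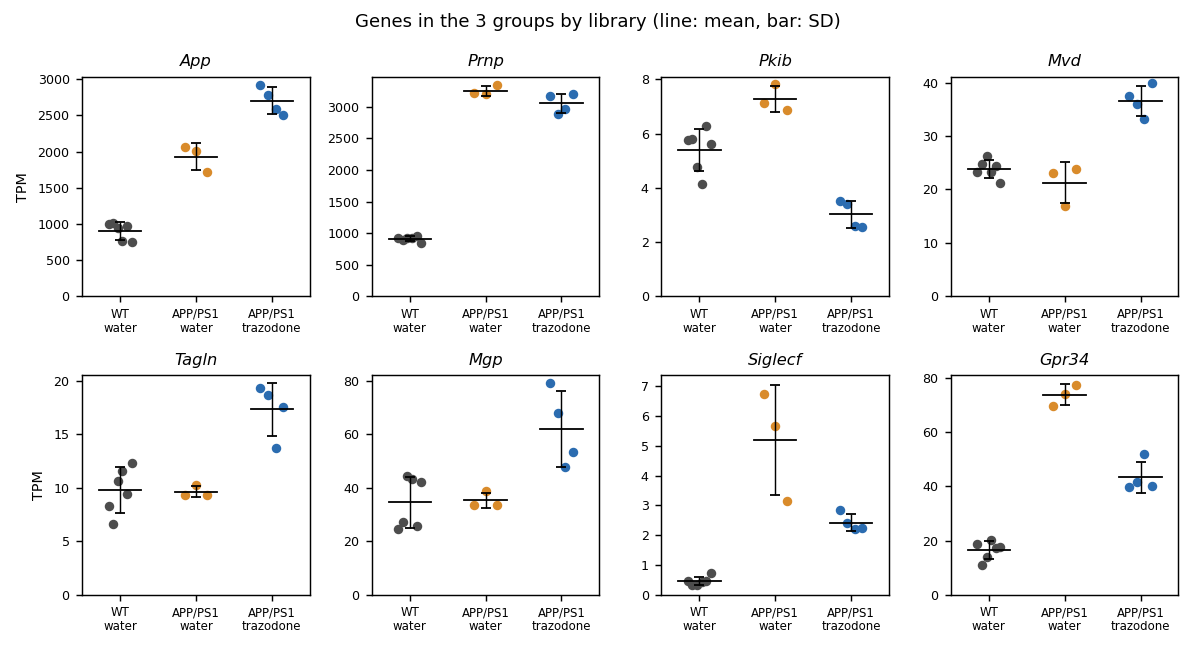
TPM of 8 genes in the 6 WT water (grey), 3 APP/PS1 water (orange) and 4 APP/PS1 trazodone (blue) libraries; points are libraries, lines are means and bars are SD. Pkib in trazodone (2.57 to 3.50 TPM) lies below both other groups, Mvd and Tagln above both, and Siglecf and Gpr34 between them in mean.

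Markers of other cells that a cortical sample can hold were measured beside these groups. Of 10 tested border macrophage markers 0 were called, with summed levels of 22.1 to 32.1 TPM in WT water and 28.3 to 35.5 TPM in APP/PS1 trazodone. Of 13 blood leukocyte markers 5 reached the level minimum and 1, the pan-leukocyte gene Ptprc that microglia also express, rose by 1.37 ± 0.18. Their summed level was 4.16 to 13.9 TPM in WT water and 10.3 to 15.9 TPM in APP/PS1 trazodone, while the neutrophil gene Ly6g was listed at 0 in all 13 libraries and the T cell gene Cd3d in 7. Choroid plexus genes had 0 of 10 called, with a summed level up to 2273 TPM in WT water and 14.7 to 30.6 TPM in APP/PS1 trazodone. Without WT water libraries 3 and 6 the counts of higher genes were 19 in the DAM list, 10 in the homeostatic list, 11 in complement and Fc receptors, 13 in the lysosome list, 4 among cytokines, 8 in the interferon list and 7 among reactive astrocyte genes, and 6 immediate early genes were lower. Leaving out any 1 library gave 19 to 22 higher DAM genes and 10 to 13 higher homeostatic genes. The part of these other cells in the results was not tested.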

How the data were processed

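RNA-seq of 13 mouse cortex libraries was analysed from tables that the authors deposited as TPM and as FPKM (fragments corrected for length and depth), with 53832 entries and 1 column per library, per the file headers. Per the submitters' processing notes, fastp, STAR and DESeq2 were used with GRCm38 (mm10); no source used here gives versions, the quantifier, the annotation release or the use of strand. The deposited TPM equal rescaled deposited FPKM to within 0.00872 TPM. Merged models (MSTRG) make up 25412 entries and may include a neighbouring gene that has none; genes with no entry, such as Ctsd, were not analysed here. Coordinates and biotypes came from GENCODE M21 by ID and then symbol (53091 entries matched), promoters from RefSeq.

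On the log2(TPM + 0.5) scale, entries averaging 0.5 TPM or more were fitted by limma 3.58.1 (R 4.3.3, trended eBayes after lmFit), all 3 groups together; contrasts were two-sided and Benjamini-Hochberg adjusted over the 18612 genes. Fold changes are on this log2 scale with SE, and understate differences of low genes. Il1rl1, below the minimum, was tested by exact permutation. Read totals were not used here; depth is an estimate from the size of 1 fragment's step in FPKM times length, over 2424 single-exon genes, where 35.9% to 45.5% of low values lay within 0.05 of a whole number, so counts were not recovered.

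Genes were named by rule: the 10 largest called changes in each direction at a mean of at least 1 TPM, leaving out predicted genes, pseudogenes and microRNAs; up to 4 called members of each of 40 lists, or 2 abundant members where fewer than 2 were called; 9 fixed genes; and the 5 called genes furthest from APP/PS1 water in each direction. Members of lists named beyond that rule (such as Ctss, Cd9 and Vim) were chosen after their values were seen. A few genes that the rule names are not reported here. The comparison, the lists and the tests were chosen with earlier results of these data known. Alternatives were other pseudocounts, minimums, scalings, thresholds, array weights, a GC and length correction (loess, span 0.4), blocks and leaving out libraries; the limma steps were tested on simulated data. Of 4 trazodone and WT pairs that share a title number, 1 had r above 0.1 (mean 0.0174), against 2 of 20 other pairs. So few pairs cannot show whether the numbers pair samples, and the main fit used no block.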

Additional observations from a re-analysis of the deposited data

Results flagged for a closer look

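In 12 of 240 groups of gene values (5%) a single library stood far from the others of its group; chance flags about 1 in 20 groups. In WT water library 6, Ttr was at 2151 TPM against 5.92 to 471 in the other 5 libraries and Kl, another choroid plexus gene, at 24.0 against 1.83 to 6.93 TPM. The same library was highest in Irak1, an interleukin-1 receptor kinase, at 52.8 against 37.0 to 41.8 TPM, and in Siglecf at 0.717 against 0.328 to 0.469 TPM. WT water library 5 was highest in Gfap at 219.9 against 129 to 151 TPM, in Ccl4 at 0.654 against 0 to 0.195 TPM and in Il3ra at 10.5 against 6.79 to 8.08 TPM. WT water library 4 was highest in Tyrobp at 39.9 against 26.4 to 29.8 TPM and lowest in Btbd2 at 39.3 against 70.6 to 86.9 TPM. Among trazodone libraries, Gpr34 was at 51.9 TPM in library 3 against 39.7 to 41.5, Vamp2 at 1152 TPM in library 1 against 1237 to 1251, and Hmox1 at 15.6 TPM in library 4 against 11.4 to 11.9.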

How the results depend on the processing

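Of 65 named genes called against WT water, 43 kept their call and direction under 29 settings and 22 lost the call in at least 1, with 0 reversals. These include Aqp4, Btbd2, Cldn20, Clu, Dusp1, Egr1, Egr2, Egr4, Hmox1, Ifit3, Il3ra, Lrp8os2, Mgp, Mlc1, Nr4a1, Pkib, Rpl18, Rpl5, Slc32a1, Tagln and Tap2; Clu, Egr2, Hmox1, Ifit3 and Pkib lost it under a replicate block alone. The 367 higher genes became 215 with a replicate block on library-name numbers, 281 with a block on title numbers and 226 at an adjusted p under 0.01. The 48 lower genes became 24 with no level minimum, 85 with array weights, 24 and 20 with blocks on title and library-name numbers, 9 at an adjusted p under 0.01 and 137 under 0.1. Neither set of numbers is known to pair the samples, and 4 pairs of each kind are too few to decide. The 6 genes lower at least 2-fold became 13 with a pseudocount of 0.1, 12 with array weights or an adjusted p under 0.1, and 11 without WT water libraries 3 and 6, chosen after seeing the data. Leaving out 1 library gave 251 to 385 higher and 28 to 54 lower genes, 131 to 160 at least 2-fold higher and 5 to 10 at least 2-fold lower. Against APP/PS1 water, the GC and length correction turned Slc32a1 to -0.0329 and Olig1 to -0.0411, and quantile normalization turned mt-Nd4l to 0.0418; the cause was not tested. Limits are the confounding of genotype with drug against WT, 4 trazodone libraries, read totals not used here and few fragments behind genes near 0.5 TPM.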

Other observations

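Several genes that were not called against WT water lay away from APP/PS1 water. Mt1 and Mt2, the metallothioneins that bind zinc and copper, were at 671 to 856 TPM and 252 to 303 TPM in APP/PS1 trazodone, 555 to 708 and 186 to 241 TPM in WT water, and 1059 to 1320 and 311 to 439 TPM in APP/PS1 water. Their trazodone minus WT differences were 0.27 and 0.36 on the log2 scale (limma adjusted p = 0.168 and 0.0939). Against APP/PS1 water the differences were -0.63 and -0.45 (adjusted p = 0.00142 and 0.0205), and -0.80 and -0.68 after the GC and length correction. Il33 was at 48.7 to 60.5 TPM in APP/PS1 trazodone, 43.6 to 52.8 TPM in WT water and 61.2 to 74.0 TPM in APP/PS1 water, with a difference from APP/PS1 water of -0.37 (adjusted p = 0.0183, and 0.164 after the correction).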
